A study of Mus musculus with 27 samples.

Results

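The bone morphogenetic protein (BMP) ligands and their extracellular antagonists were followed through osteoblast differentiation by 9 genes: Bmp1, Bmp2, Bmp3, Bmp4, Bmp6, Bmp7, Nog, Grem1 and Chrdl1. They were taken by symbol from the 37991 genes quantified in each of 27 expression profiles, with 1 gene identifier found for each of the 9. The profiles came from cells of the neonatal mouse skull vault (calvaria) and comprised 3 profiles for each of 9 time points, every other day from day 2 to day 18 after the start of differentiation. All cells shared the strain C57BL/6J-Col3.6 CFP, in which a cyan fluorescent protein is driven by a Col3.6 collagen promoter fragment, and were digested from calvariae of mice 5 to 9 days old, sorted on that fluorescence and then kept in ascorbic acid and beta-glycerol phosphate. No untreated or undifferentiated control culture was part of the series, and the question was how expression moves between the pre-osteoblast and the mature osteoblast.

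BMPs are secreted as dimers that bind paired type I and type II serine/threonine kinase receptors and signal through Smad1, Smad5 and Smad9 to genes such as the Id family, and they are known for their power to induce bone. Noggin (Nog), gremlin 1 (Grem1) and chordin-like 1 (Chrdl1) are secreted proteins that bind BMPs and keep them from their receptors. Bmp1 carries the name but is no growth factor: it is a tolloid-type metalloprotease that trims procollagen and cleaves chordin, while Bmp3 is an atypical ligand that opposes the osteogenic BMPs.

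The 3 profiles of a time point carried a single barcode and differed in sequencing lane, and they were summed to 1 library here. The study calls them triplicate samples, and nothing in the labels ties them to separate cultures, so p-values and SDs may not cover the spread between cultures. A summed library held 22470146 to 62009116 estimated counts, with a median of 43146772. Across the 9 genes and 9 time points the counts of the 3 profiles scattered about as sampling alone predicts (chi-square per degree of freedom 0.919). Over the 12331 to 13904 genes with enough counts on a day, the same measure was 1.21 to 1.45, above sampling alone. The SD over the 3 profiles was not taken to stand for the spread between cultures. Levels are given as TPM, the transcripts of a gene among 1000000 transcripts, which allow for transcript length and can be compared between genes, after each profile was scaled to its upper quartile. Of the 11 osteoblast markers examined, 8 rose with day. Among them Ibsp was at 0.581 TPM on day 2 and 78.4 TPM on day 18. The other 3 did not pass the line in day described below. Their log2 changes were -1.23 for Sp7, -1.17 for Spp1 and 2.22 for Alpl (adjusted p = 0.233, 0.0932 and 0.146 from edgeR). All 3 passed the spline in day, also described below (adjusted p = 1.16e-05, 0.000421 and 0.00742 from edgeR). Spp1 was lower on days 14 to 18 than on days 2 to 6 (log2 difference -1.09, adjusted p = 0.0301 from edgeR). Sp7 and Alpl did not pass that comparison. Sp7 was highest on day 2, at 32.3 TPM. Markers of other cell types moved over the same days. Endothelial markers stayed at or under 3.54 TPM in sum with Tie1 at 0 throughout. The 5 chondrocyte markers summed to 106 to 129 TPM on days 2 to 6 and 92.7 to 123 TPM on days 14 to 18. That sum held opposite changes, as Col2a1 fell (log2 change -1.27) while Sox9 (1.26) and Col10a1 (2.24) rose. Their adjusted p were 0.000498, 0.0263 and 0.00263 from edgeR. The 7 macrophage markers, of which 6 rose, summed to 24.1 to 61.7 TPM on days 2 to 6 and 522 to 2014 TPM on days 14 to 18, and the 5 adipocyte markers, all of which rose, to 3.21 to 7.44 and 188 to 407 TPM. The 5 smooth muscle and pericyte markers, all of which fell, summed to 3033 to 6184 TPM early and 988 to 1132 TPM late, the 5 proliferation markers, which also fell, to 293 to 352 and 68.7 to 88.9 TPM. No marker of the last 4 lists was at 0 on all days, and the part of these cells in the changes below was not tested. In bulk RNA of this kind, more cells of a type and more RNA per cell cannot be told apart.

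In the NCBIM37 annotation, Bmp4 (ENSMUSG00000021835) spans chr14:47003195-47010344 and Bmp1 (ENSMUSG00000022098) spans chr14:70874364-70920067, both on the minus strand. Chrdl1 (ENSMUSG00000031283) lies on the minus strand at chrX:139720217-139828805. Chromosome 2 holds Grem1 (ENSMUSG00000074934, chr2:113586321-113598803, minus strand), Bmp2 (ENSMUSG00000027358, chr2:133377895-133388621, plus strand) and Bmp7 (ENSMUSG00000008999, chr2:172693513-172765822, minus strand). Bmp3 (ENSMUSG00000029335) spans chr5:99283458-99309979 on the plus strand and Nog (ENSMUSG00000048616) chr11:89161952-89163873 on the minus strand. Bmp6 (ENSMUSG00000039004), on the plus strand at chr13:38436995-38592183, overlaps Txndc5 on the opposite strand. Its counts were whole numbers in 13 of 27 profiles, against 27 of 27 for each of the other 8 genes, so that reads of Bmp6 were in part divided with another gene and its level is uncertain. Txndc5 held 59083 counts over all profiles against 3309 for Bmp6. Bmp4 overlaps the opposite-strand genes Gm15217 and Gm15222, which held 13 and 27 counts over all profiles.

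Promoter sequence in RefSeq was at hand for 3 of the 9 genes, Bmp4, Bmp6 and Grem1. The 250 bases before the transcription start of Bmp4, the most abundant ligand, and of Grem1, the antagonist with the most different course, are shown 5′ to 3′ because these genes parted after day 6. Each matched the NCBIM37 sequence of its own chromosome exactly and once on the minus strand. The matches lie at chr14:47010345-47010594 for Bmp4 and at chr2:113598806-113599055 for Grem1. Other chromosomes and the opposite strand were not searched. Neither stretch overlaps an annotated exon, whereas that of Bmp6 does and is not shown. Capitals mark every match, on either strand, to any of 6 short motifs. They are the GC box GGGCGG, the CCAAT box, the TATA box as TATAAA, the palindrome GGCGCC, the core TGTGGT bound by Runx factors, and the palindromic E-box CACGTG.
Bmp4: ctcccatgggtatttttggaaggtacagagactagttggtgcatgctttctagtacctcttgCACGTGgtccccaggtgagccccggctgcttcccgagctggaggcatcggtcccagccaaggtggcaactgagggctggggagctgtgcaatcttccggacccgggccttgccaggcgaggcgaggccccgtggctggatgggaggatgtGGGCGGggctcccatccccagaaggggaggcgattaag
Grem1: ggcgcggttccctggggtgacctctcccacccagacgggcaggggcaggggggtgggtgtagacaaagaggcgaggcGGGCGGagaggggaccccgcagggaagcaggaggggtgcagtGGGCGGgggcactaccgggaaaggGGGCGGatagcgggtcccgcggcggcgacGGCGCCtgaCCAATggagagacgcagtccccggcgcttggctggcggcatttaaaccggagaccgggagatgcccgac

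Both sequences are rich in G and C (63.2% in Bmp4 and 72.0% in Grem1). Bmp4 has 1 GC box, starting 38 bases before the transcription start, and 1 CACGTG, starting 188 bases before it. Grem1 has 3 GC boxes, starting 173, 131 and 107 bases before the start, then GGCGCC at 78 and CCAAT at 69 bases before it. Neither holds TATAAA or TGTGGT in this window. Over the 32851 promoter windows of the same length in that table, GGGCGG was found in 32.7%, CCAAT in 33.8%, TATAAA in 12.4%, GGCGCC in 9.59%, TGTGGT in 14.0% and CACGTG in 6.02%. These matches describe the letters and no binding was measured.

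Most of the 9 genes rose as the cells differentiated. With a straight line in day fitted to the summed counts of the 9 libraries (edgeR quasi-likelihood test), 7 of the 9 genes rose at an adjusted p under 0.05, none fell, and Nog and Grem1 did not pass. Over all 15659 genes tested, 54.3% passed that test, 28.3% as rises and 26.1% as falls. Between the first and the last day the fitted log2 change had a median of 2.20 over the 9 genes and 0.05 over all genes tested. All 9 genes passed the filter on low counts. A natural spline with 3 degrees of freedom, which also finds peaks and dips, passed for 8 of the 9 genes, including Nog and Grem1 but not Bmp1, against 57.5% of the 16256 genes tested. The plot of levels by day shows the 3 kinds of course in the set, a climb in most ligands and Chrdl1, an early peak in Grem1 and a dip in Nog.

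**Figure D1:**
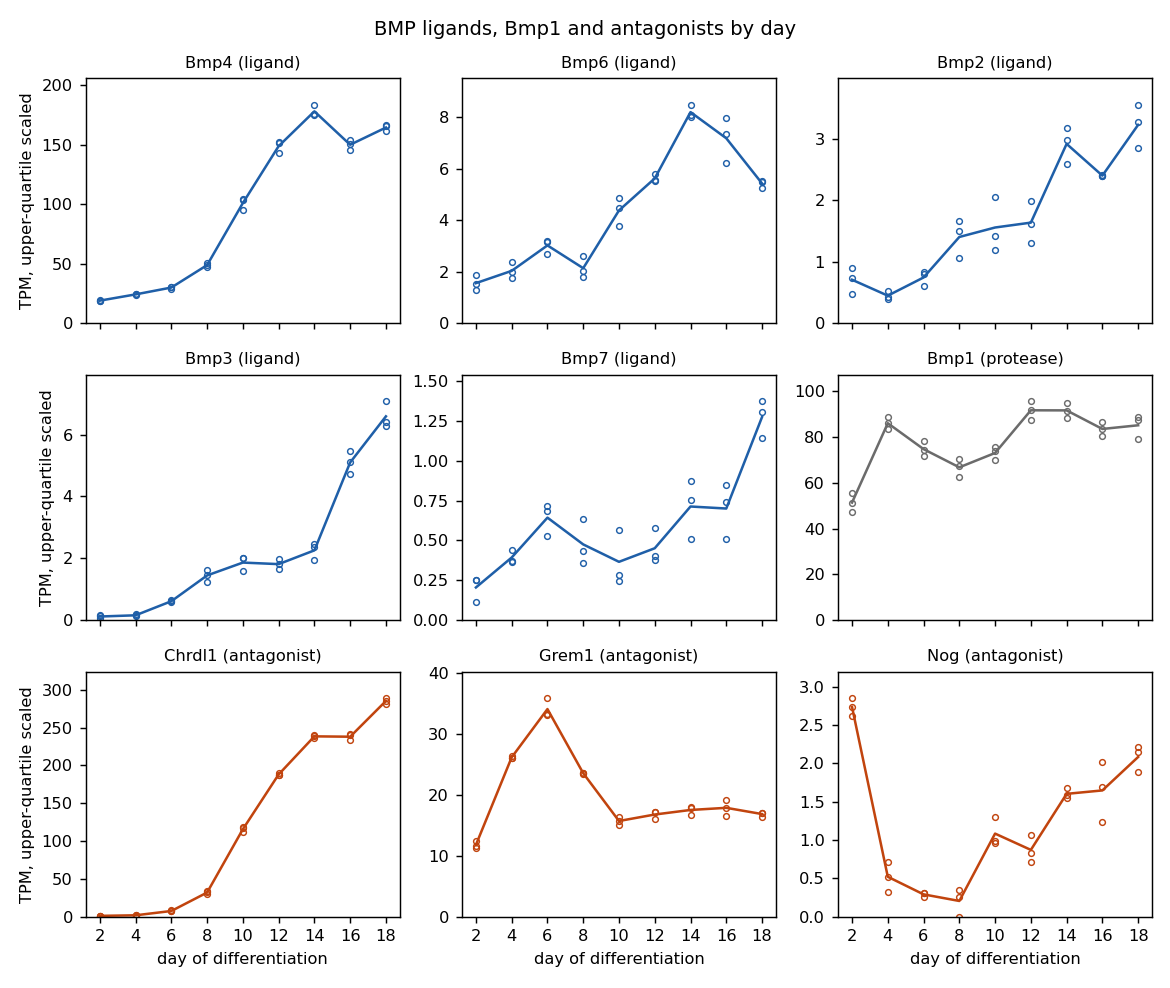
Level of each gene in TPM after upper-quartile scaling (vertical axis, linear from 0, with its own range in each panel) against the day of differentiation. Open circles are the 3 profiles of a day, which share a barcode and were treated as 1 library, and lines join their means. Bmp4 and Chrdl1 climb most steeply between days 6 and 14, Grem1 peaks on day 6 and Nog is lowest on day 8.

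Bmp4, the ligand closest to Bmp2 in sequence and a strong inducer of osteoblasts, supplied most of the ligand message. Its level was 19.1, 24.3 and 30.1 TPM on days 2, 4 and 6, then 48.9, 101 and 149 TPM on days 8, 10 and 12, and 178, 150.0 and 164 TPM on days 14, 16 and 18. The 3 early days and the 3 late days did not overlap, and the largest single step, a 2.07-fold rise, came between days 8 and 10. The SD over the profiles of a day was at most 5.29 TPM. The fitted log2 change was 3.59 (standard error 0.45, adjusted p = 0.000147 from edgeR), and the spline gave an adjusted p of 5.34e-08. By level Bmp4 went from above 73.2% of the genes detected on day 2 to above 96.7% on day 18.

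Bmp6 followed a similar course at a far lower level. It was at 1.56, 2.03 and 3.02 TPM on days 2 to 6, at 2.14, 4.38 and 5.62 TPM on days 8 to 12, and at 8.19, 7.17 and 5.42 TPM on days 14 to 18. Like Bmp4 it was highest on day 14, with days 2 to 6 all under days 14 to 18. Its fitted log2 change was 2.20 (standard error 0.38, adjusted p = 0.000784 from edgeR). Counts of Bmp6 were whole numbers in all profiles of days 2 to 6 and in none of days 10 to 16. The divided reads thus fell on days of the higher levels, and their part in the rise was not tested.

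Bmp2, a ligand used clinically to induce bone, was scarce throughout. The successive libraries gave 0.710, 0.451 and 0.747 TPM up to day 6, 1.41, 1.56 and 1.64 TPM up to day 12, and 2.92, 2.40 and 3.23 TPM up to day 18. It stayed under 1 TPM on the first 3 days and above it on the other 6, and the early and late days did not overlap. The fitted log2 change was 2.51 (standard error 0.38, adjusted p = 0.000402 from edgeR), from 41 to 285 counts per library. On the day of its highest level, Bmp2 stood at 3.23 TPM beside 164 TPM for Bmp4.

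Bmp3, the opposing ligand, had the largest fitted rise among the 5 ligands of the set and its highest level on the last day. It had 9 counts on day 2, or 0.213 CPM, the count per 1000000 counts of the library (95% Wilson interval 0.112 to 0.405), and 503 counts on day 18, or 11.3 CPM (10.4 to 12.3). In TPM it was at 0.115, 0.154 and 0.610 in the first 3 libraries, at 1.44, 1.86, 1.81 and 2.26 in the next 4 (days 8 to 14), and at 5.10 and 6.59 in the last pair. The course therefore had a plateau and then a further rise over the last 2 time points, after Bmp4 and Bmp6 had already reached their highest levels. The fitted log2 change was 5.14 (standard error 0.62, adjusted p = 0.000116 from edgeR).

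Bmp7 was the rarest of the 9 genes, with a mean of 0.580 ± 0.310 TPM (SD over 9 time points), and reached 1 TPM on day 18 only. Its levels were 0.205, 0.393 and 0.643 TPM on days 2 to 6, 0.475, 0.366 and 0.451 TPM on days 8 to 12, and 0.713, 0.700 and 1.27 TPM on days 14 to 18. These levels rested on 13 to 116 counts per library, and the Wilson intervals of days 6 (1.16 to 1.89 CPM) and 14 (1.11 to 1.81 CPM) overlapped. The fitted log2 change was 1.60 (standard error 0.53, adjusted p = 0.0251 from edgeR). That call rested on the first and the last library: without day 2 the change was 1.34 (adjusted p = 0.0891 from edgeR) and without day 18 it was 1.07 (adjusted p = 0.188 from edgeR).

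Bmp1, the protease, was abundant from the start and changed least of the 7 genes that rose. It was at 51.4, 86.1 and 74.7 TPM on days 2 to 6, at 66.8, 73.1 and 91.7 TPM on days 8 to 12, and at 91.7, 83.5 and 85.2 TPM on days 14 to 18. In TPM day 2 lay below all other days, and day 4 was already above the level of days 16 and 18. In normalised counts, as log2(CPM + 0.5), day 4 (6.74) was instead below day 16 (6.77) and day 18 (6.85). The fitted log2 change was 0.49 (standard error 0.17, adjusted p = 0.0286 from edgeR). Without day 2 it fell short of the threshold, at 0.27 (adjusted p = 0.160 from edgeR), as it did without day 14, at 0.45 (adjusted p = 0.0587 from edgeR). The comparison of days 14 to 18 with days 2 to 6 gave 0.31 (adjusted p = 0.121 from edgeR).

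Chrdl1 showed the widest change of the 9 genes. It was at 1.23, 1.97 and 7.66 TPM on days 2 to 6, at 32.1, 116 and 188 TPM on days 8 to 12, and at 238, 238 and 285 TPM on days 14 to 18. This is a 232-fold difference in TPM between the first and the last day, with the steepest step, 4.18-fold, between days 6 and 8. The counts behind it were 114 on day 2 and 23590 on day 18. The fitted log2 change was 8.64 (standard error 1.38, adjusted p = 0.000515 from edgeR), and the spline gave an adjusted p of 7.22e-08. Chrdl1 moved from the sixth place by level among the 9 genes on day 2 to the first from day 10 on, and from above 34.9% to above 98.2% of the genes detected.

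Grem1 was highest early, on day 6, and lowest on day 2. It started at 11.8, 26.2 and 34.1 TPM on days 2 to 6, continued at 23.6, 15.7 and 16.8 TPM on days 8 to 12 and ended at 17.5, 17.9 and 16.9 TPM on days 14 to 18. It thus rose 2.89-fold to day 6, came down by day 10 and then stayed between 15.7 and 17.9 TPM. The straight line did not pass (log2 change -0.54, standard error 0.40, adjusted p = 0.279 from edgeR), whereas the spline did (adjusted p = 0.0120 from edgeR). The spline rested on the early libraries, with an adjusted p of 0.240 without day 6 and 0.0597 without day 4 from edgeR. Without day 2 the line fell by 1.07 on the log2 scale (adjusted p = 0.00918 from edgeR).

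Nog, which inhibits several BMPs and is itself induced by BMP signalling in osteoblasts, had a course with 2 high ends. Nog measured 2.74, 0.522 and 0.292 TPM on days 2 to 6, 0.206, 1.08 and 0.872 TPM on days 8 to 12, and 1.60, 1.65 and 2.08 TPM on days 14 to 18. Day 8 held 7 counts (0.235 CPM, 95% Wilson interval 0.114 to 0.485) against 131 on day 2 (3.10 CPM, 2.61 to 3.68) and 92 on day 18 (2.07 CPM, 1.69 to 2.54). The line did not pass (log2 change 0.33, standard error 0.90, adjusted p = 0.777 from edgeR) and the spline did (adjusted p = 0.00444 from edgeR), though with 0.0526 without day 6. Without day 2 the line rose by 2.99 (adjusted p = 0.00878 from edgeR), and without day 18 its sign turned, to -0.11 (adjusted p = 0.938 from edgeR).

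**Figure D2:**
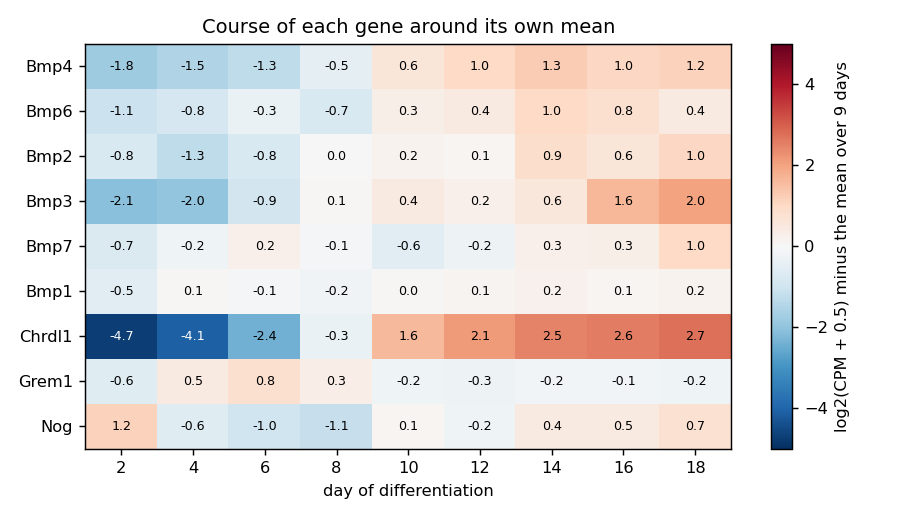
Normalised log2(CPM + 0.5) of each gene (rows) on each day (columns) minus the gene's own mean over the 9 days, printed in each cell; blue is below and red above the mean. Chrdl1 has the widest span from blue to red, while Grem1 is highest on day 6 and Nog on day 2.

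**Figure D3:**
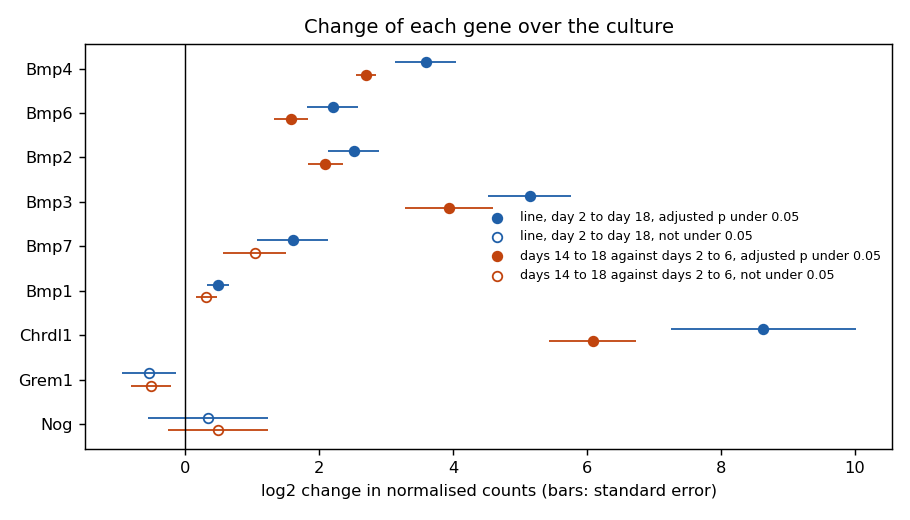
Log2 change in normalised counts (horizontal axis, bars are standard errors) of each gene in the line from day 2 to day 18 (blue, 9 libraries) and between days 2 to 6 and days 14 to 18 (orange, 6 libraries). Filled points have an adjusted p under 0.05 from edgeR; Bmp1 and Bmp7 are filled for the line only.

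When days 14 to 18 were set against days 2 to 6 as 3 libraries each, 5 of the 9 genes rose (Bmp2, Bmp3, Bmp4, Bmp6 and Chrdl1), and none fell. Of all 15148 genes tested in that way 51.8% passed, 26.6% as higher and 25.2% as lower. The log2 differences were 2.69 for Bmp4 (standard error 0.15, adjusted p = 2.3e-05 from edgeR) and 6.08 for Chrdl1 (standard error 0.65, adjusted p = 0.000257 from edgeR), and those of Nog (0.49) and Grem1 (-0.51) did not pass. Both comparisons use the same libraries and are not independent of each other.

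The order of the genes by mean level was Chrdl1 (123 ± 116 TPM, SD over 9 time points), Bmp4 (96.1 ± 65.9), Bmp1 (78.2 ± 13.2), Grem1 (20.1 ± 6.76), Bmp6 (4.39 ± 2.38), Bmp3 (2.22 ± 2.22), Bmp2 (1.67 ± 0.993), Nog (1.23 ± 0.858) and Bmp7. Only the steps from Bmp1 to Grem1 and from Grem1 to Bmp6 separated genes whose ranges over the days did not overlap, with the first gene higher on 9 of 9 days in each. Chrdl1 exceeded Bmp4 on 5 of 9 days and Bmp4 exceeded Bmp1 on 5, so the places of these 3 genes depended on the day. Bmp1 led on days 2 to 8 and Chrdl1 from day 10 on.

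Added up, the 5 BMP ligands Bmp2, Bmp3, Bmp4, Bmp6 and Bmp7 summed to 21.7 TPM at first and 181 TPM at last, with the highest sum, 192 TPM, on day 14. Bmp4 made up between 85.7% of that sum on day 6 and 94.0% on day 12. The 3 antagonists summed to 15.8 TPM on day 2 and 304 TPM on day 18. Their make-up turned over: Grem1 held 74.9% of it on day 2 and 91.3% on day 4, and Chrdl1 held 57.4% on day 8 and 93.8% on day 18. Nog held 17.3% on day 2 and at most 1.82% on any later day. The ratio of antagonist to ligand message was 0.728 on day 2, lay between 1.03 and 1.30 from day 4 to day 12, and was 1.34, 1.56 and 1.68 on days 14, 16 and 18. These sums describe single libraries, weigh each transcript equally and carry no test. Both sums hold the named genes alone, so the ratio does not stand for all BMP antagonists and ligands in the cells. The 12 other ligands examined below summed to 10.9 to 17.5 TPM on days 2 to 6 and 75.7 to 116 TPM on days 14 to 18. The 17 other antagonists and modulators summed to 1212 to 1448 TPM and 1890 to 2150 TPM on these days. The ligand sum also counts Bmp3, the opposing ligand.

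**Figure D4:**
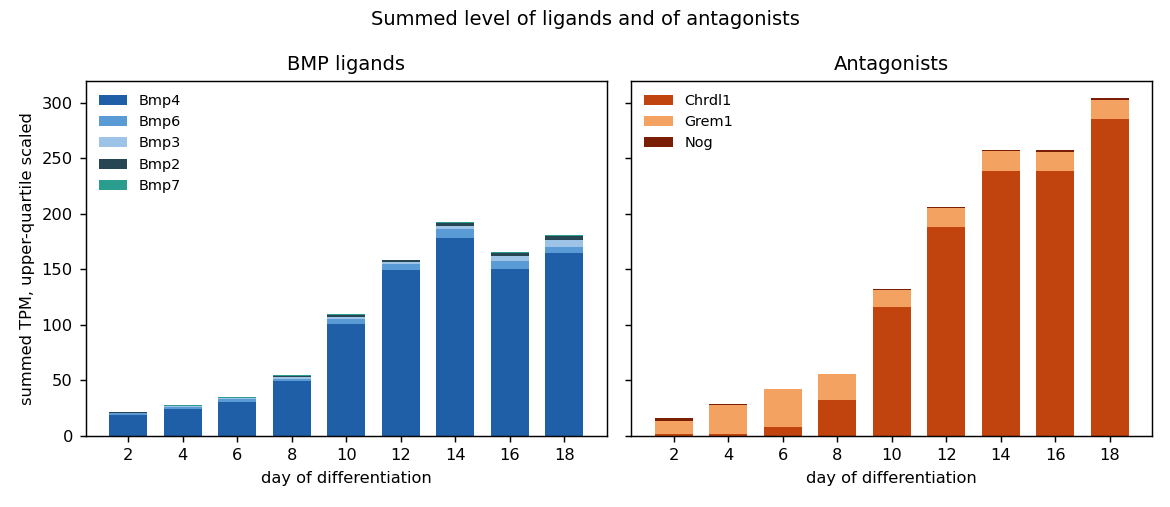
Summed TPM after upper-quartile scaling on each day, stacked by gene, for the 5 ligands (left) and the 3 antagonists (right) on a shared linear axis from 0. Bmp4 forms most of every ligand bar, and the antagonist bars pass from mostly Grem1 up to day 6 to mostly Chrdl1 from day 8.

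The effective length that RSEM assigns to a gene is weighted by the share of each isoform, so it moves when the isoform mix moves and does not use the level. For the single-transcript genes Bmp2, Bmp3, Nog and Grem1 it cannot move. For Bmp1, with 4 annotated transcripts, it ranged from 1907 bases on day 4 to 2127 on day 18, with an SD over profiles of up to 122 bases on a day. For Chrdl1, also with 4 transcripts, it was 3102 ± 17.4 bases on day 14, 3297 ± 23.5 on day 16 and 3075 ± 21.6 on day 18 (SD over 3 profiles, n = 3), so the day 16 library differed from its neighbours by more than the profiles did, without a trend in day. Over all days Chrdl1 ranged from 3075 to 3419 bases, and Bmp4 stayed between 1439 and 1492 bases. Bmp7, with 2 transcripts, had the widest range of the 9 genes, from 2729 to 3391 bases, so its TPM depended in part on this length. On day 10, 4 counts of Bmp7 stood for 0.248 TPM in replicate 1 and 0.567 TPM in replicate 2. The Chrdl1 counts, which do not depend on this length, were 24062 on day 16 and 23590 on day 18, from libraries of different depth. As CPM they were 476 (Wilson interval 470 to 482) on day 16 and 531 (524 to 537) on day 18. In normalised counts, as log2(CPM + 0.5), Chrdl1 was at 8.93 on day 16 and 9.12 on day 18, so it was also higher on day 18 without this length.

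For each gene with a mean of at least 1 TPM, the 3 genes with the most similar course (2 are given for Bmp4) were sought by Pearson's r of log2(CPM + 0.5) over the 9 libraries, among the 7584 or 7585 other genes with a mean of at least 10 TPM. The points share libraries and many genes followed day, so high values are common and are given without a test. Bmp4 was closest to Ptgfrn (r = 0.999) and Clu (0.998), and Chrdl1 to Rnf144a (0.999), Islr (0.998) and Bicc1 (0.998). Bmp3 was closest to Ucma (0.988), Rgs2 (0.980) and Tlr4 (0.979), and Ucma stood at 0.577 TPM in the first library and 101 TPM in the last. The early peak of Grem1 was shared by Plat (0.963), Ly6a (0.928) and Thy1 (0.913), and the surface protein gene Ly6a stood at 363, 1327 and 767 TPM on days 2, 6 and 18. Nog was closest to Sept11 (0.973), Cyp26b1 (0.965), which degrades retinoic acid, and Cdc42ep3 (0.949). Cyp26b1 had 27.9, 6.41 and 24.6 TPM on days 2, 6 and 18. The closest genes were Foxj2 (0.976), Fam180a (0.975) and Bre (0.973) for Bmp2, Tbc1d14 (0.985), Galt (0.984) and Deaf1 (0.982) for Bmp6 and Lrrn4cl (0.958), Tmem45a (0.955) and Clk2 (0.954) for Bmp1.

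The other BMP lists held genes that rose and genes that fell, in numbers to be read against the 28.3% of rises and 26.1% of falls among all genes tested. Among 12 other BMP and GDF ligands, 9 passed the filter for the line, of which 3 rose and 1 fell. Gdf10, also called Bmp3b and the closest relative of Bmp3, climbed from 2.03 to 99.8 TPM between the first and last days (log2 change 6.35, standard error 0.46, adjusted p = 1.18e-05 from edgeR), which made it the most abundant of these 12. Bmp5 rose (log2 change 1.71, adjusted p = 0.00386 from edgeR), Gdf11 rose slightly (0.43, adjusted p = 0.0497 from edgeR), and Bmp8b fell (-4.81, adjusted p = 0.00301 from edgeR) at less than 1 TPM, a value made uncertain by the near-identical Bmp8a. Bmp10 and Gdf3 had 0 counts in all libraries, where 3 counts amount to 0.0484 to 0.134 CPM.

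Of 17 other extracellular antagonists and modulators, 13 were tested, 9 rose and 2 fell, with a median log2 change of 1.01. Crim1, a transmembrane protein that holds BMPs in the cell, fell by 2.88 (adjusted p = 0.000145 from edgeR). Smoc1 rose by 3.86, Smoc2 by 2.84, Kcp by 3.91, Nbl1 by 2.07, Chrd by 1.86 and Twsg1, a cofactor of chordin, by 0.81 (adjusted p from 2.75e-05 to 0.0172 from edgeR). The antagonists therefore did not share 1 direction: Chrdl1, Chrd, Nbl1 and Fst rose while Crim1 and Fstl3 fell. Sost, Cer1, Chrdl2 and Vwc2 did not pass the filter for the line.

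**Figure D5:**
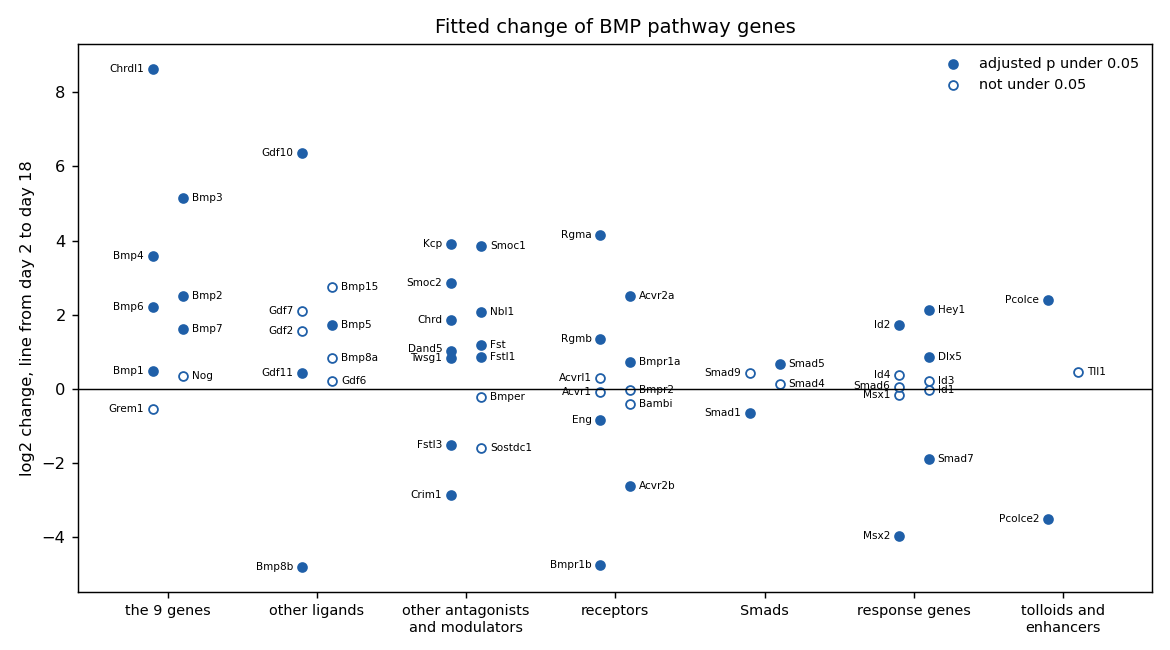
Fitted log2 change from day 2 to day 18 (vertical axis) of every gene of the BMP lists that passed the filter on counts, in columns by role. Filled points have an adjusted p under 0.05 from edgeR. The 7 filled points among the 9 genes are all above 0, whereas the lists of antagonists, receptors and response genes hold filled points on both sides.

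Among 11 receptors and co-receptors, 4 rose and 3 fell. The type I receptor Bmpr1b, which binds GDF ligands with preference, fell from 6.39 to 0.331 TPM (log2 change -4.76, standard error 0.42, adjusted p = 2.8e-05 from edgeR), while Bmpr1a rose from 32.2 to 55.2 TPM (0.72, standard error 0.14, adjusted p = 0.00136 from edgeR). The type II receptor Acvr2a rose by 2.51 (adjusted p = 0.000135 from edgeR) and the co-receptor Rgma by 4.15 (adjusted p = 0.000108 from edgeR). The main type II receptor Bmpr2, between 59.4 and 75.8 TPM, and Acvr1, between 37.0 and 45.7 TPM, passed neither the line (adjusted p = 0.866 and 0.467 from edgeR) nor the spline (adjusted p = 0.0649 and 0.527 from edgeR). Of the 4 Smads, Smad5 rose by 0.66 (adjusted p = 0.00432 from edgeR) and Smad1 had a log2 change of -0.65 (adjusted p = 0.0111 from edgeR).

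The 10 response genes had a median log2 change of 0.11, with 3 that rose and 2 that fell, beside 2.20 over the 9 genes. Id1 (log2 change -0.05, adjusted p = 0.943 from edgeR), Id3 (0.19, adjusted p = 0.533) and Smad6 (0.03, adjusted p = 0.962) did not pass the line, and all 3 passed the spline (adjusted p from 0.00123 to 0.00279 from edgeR). Id1 was at 52.1, 19.6, 45.2 and 24.9 TPM on days 2, 4, 14 and 18. Msx2 fell by 3.99, from 130 to 12.9 TPM, and Id2 rose by 1.72 (adjusted p = 5.71e-05 and 0.0133 from edgeR). Among 4 partners and relatives of Bmp1, 3 were tested, of which 1 rose and 1 fell in the line. The procollagen enhancer Pcolce rose from 288 to 1516 TPM (log2 change 2.38, adjusted p = 8.16e-05 from edgeR). The enhancer Pcolce2 fell (log2 change -3.53, adjusted p = 0.00235 from edgeR) and was highest on day 2, at 12.4 TPM. The related protease Tll1 rose from 24.5 to 68.3 TPM by day 10 and was back at 36.4 TPM by day 18. The spline of Tll1 had an adjusted p of 1.82e-06 from edgeR.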

How the data were processed

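RNA was sequenced from calvarial cells at 9 time points, 3 profiles each, after an amplification step. Reads were aligned by the authors with Bowtie (0.12.9) against NCBIM37 transcripts and quantified with RSEM at a mean fragment length of 280 and an SD of 50 bases. The submitters' processing notes give RSEM as 1.2.8, and the study's methods name another version. The authors deposited the estimated counts of RSEM, not normalized, and each gene's effective length. TPM as deposited sum to 1000000 per profile, and FPKM as deposited are scaled to effective length and depth. Strand was not given in the sources used here.

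Here TPM were scaled so that the 75th percentile of the nonzero values in each profile equalled the mean of these percentiles. Counts of a day were summed, rounded and fitted in edgeR 4.0.16 (R 4.3.3) by the quasi-likelihood test with upper-quartile factors, after filterByExpr (minimum count 10), as a line and as a spline in day. Adjusted p (Benjamini-Hochberg, over all genes tested) under 0.05 was called. A fitted change is the slope times 16 days. With 1 library per day, p-values measure scatter around the curve and not the spread between cultures. Wilson intervals (scipy 1.17.1) and the 3-count floor cover only counting error. The model was also run on simulated counts in which few genes changed, all along a straight line. That run does not show how the model performs on curved courses or when many genes change. Alternatives were TMM factors, DESeq2 1.42.0, other filters, 27 profiles as separate samples, left-out replicates and days, limma 3.58.1 on TPM, and TPM or FPKM as deposited.

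Gene symbols came from the GENCODE annotation of NCBIM37. The genes, their lists and the tests were chosen with earlier results of these data known. Genes named are the 9, those of the pathway and marker lists, and the 3 of most similar course for each. A gene of the antagonist list and a gene of similar course are not reported here, and the former was left out of that list's counts, its median and the figure after values were seen. Replicate numbers coincide with sequencing lanes. Txndc5 was named for its overlap after its values were seen.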

Additional observations from a re-analysis of the deposited data

How the results depend on the processing

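Of 576 values computed under alternatives, 547 kept their call or stayed within wide bounds. A mean level was held to be the same within 1 SD over the 9 time points, and a count of genes within a set fold range. That SD includes the change over days, so the 124 mean levels held to be the same say little about robustness. The rises of Bmp2, Bmp3, Bmp4, Bmp6 and Chrdl1 passed the threshold in all 22 alternatives tried for each, but with limma on log2(TPM + 1) the change was 2.73 for Bmp3 and 1.52 for Bmp2, and 0.62 for Bmp7, since that pseudocount understates changes of low genes. The change of Bmp1 did not pass with days 14 to 18 against days 2 to 6 (0.31) or with limma on TPM (0.50 with a pseudocount of 1, filtered or not, and 0.51 with a pseudocount of 0.1), nor did that of Bmp7 with days 14 to 18 against days 2 to 6 (1.03). Leaving out 1 time point at a time gave 0.27 to 0.65 for Bmp1, 1.07 to 1.90 for Bmp7, -0.11 to 2.99 for Nog and -1.07 to -0.26 for Grem1, with 6 to 7 of the 9 genes called higher and 0 to 1 lower. The Nog value of -0.11 arose without day 18. The spline of Bmp7 missed the threshold without day 2 (adjusted p = 0.0700 from edgeR) and without day 18 (0.109), while that of Bmp1 passed without day 4 (0.00582), without day 8 (0.0396), and with DESeq2 (0.0393). Leaving out replicate 1, 2 or 3 altered no call. Deviations of profiles that share a replicate number had a mean correlation of 0.005 and those of other profiles -0.002, so that no pairing was found. With 27 profiles as separate samples, Grem1 was called lower without the replicate block (-0.55, adjusted p = 0.0417 from edgeR) and with it (-0.55, adjusted p = 0.0496 from edgeR). That made 1 of the 9 genes lower in each, although nothing in the labels ties these profiles to separate cultures. Genes called by the line then numbered 10754 without the replicate block and 10881 with it, against 8510. In FPKM as deposited, another scale, the mean level was 50.1 for Bmp1 and 13.0 for Grem1. The causes of the other changes were not tested. Depth limits Bmp7, Nog and early Bmp3, each with fewer than 20 counts in some libraries.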
